A study of Homo sapiens with 14 samples.

Results

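The genes described here are the protein-coding genes whose symbol is ZNF and a number, with or without 1 more letter, and which were selected on their measured level: a mean of 5 TPM or more (a share of transcripts, corrected for length) on at least 1 day. Of 510 protein-coding ZNF genes, 333 did so, among 60587 genes in the tables. They were measured in cartilage pellets grown from WA01, an established human stem cell line of embryonic origin (H1), with no genetic change named in the labels. All groups share the line and the chondrogenic medium, and differ in the day of harvest: day 21 (4 libraries), day 30 (5 libraries) and day 45 (5 libraries). RNA came from whole pellets, so fewer cells of a type and less RNA per cell cannot be told apart. The labels do not say that replicates were separate cultures, and p-values then measure only the spread between these libraries. The design asks how expression differs between the 3 stages.

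Most ZNF proteins hold zinc fingers of the C2H2 kind, short loops in which 2 cysteines and 2 histidines grip a zinc ion and which often read DNA side by side. Many also carry a KRAB domain, which recruits the corepressor TRIM28 and, through it, the histone methyltransferase SETDB1, and many of these proteins silence retrotransposons. Others act without KRAB, as promoter factors, RNA-binding proteins, or partners of mesenchymal regulators.

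Libraries held 18183776 to 33660704 expected counts, and 17838 genes were tested. Chondrocyte markers (COL2A1, ACAN, SOX9 and 5 others) had sums of 20200 to 23400 TPM at day 21 and 33400 to 86400 at day 30. At day 45 the sums were 65500 to 96200, and none of the 8 was under 1 TPM in every library. Most of these sums was COL2A1, with means of 13420, 42190 and 55100 TPM. COL9A1, COL11A1 and MATN1 had lower means at day 45 than at day 30. MATN1, with means of 130, 555.6 and 66.32 TPM, also ended below day 21. Cycling-cell markers had sums of 232 to 322 TPM at day 21, 45.8 to 64.3 at day 30, and at day 45 55.8 to 81.0, with none of the 5 under 1 TPM throughout. Pluripotency markers summed to 17.4 to 22.4, 2.92 to 4.71 and 0.51 to 1.34 TPM, with 3 of 4 (POU5F1, NANOG and LIN28A) under 1 TPM in every library. The day 21 sum was nearly all DPPA4, with a mean of 19.34 TPM. Blood markers summed to 1.46 to 2.91 TPM at day 21 and 49.1 to 64.2 at day 45, with 2 of 3 (PTPRC and HBB) under 1 TPM throughout. The rise was that of CD68 alone, from a mean of 2.07 to 56.55 TPM. Whether cells of each listed type were present, and their part in the results below, was not tested. Day 30 replicates 3 to 5 stood apart: their rank correlation between a gene's deviation and its transcript length was -0.422 to -0.468, against -0.071 to 0.222 in the other libraries, so counts that rest on day 30, and calls that their omission ends, are given with and without them. The library titled day 45 replicate 1 carries a treatment label of 30 days and was used at day 45.

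Changes are log2 fold changes of counts after TMM scaling (a scaling that centres most genes), fitted with edgeR, and levels followed over time are CPM (counts relative to library size) on the same scale. The choice of scale matters here. On log2(TPM + 1), the median of all genes tested was -0.34 at day 45 against day 21, and it was -0.05 on the TMM scale, so changes below are relative to the other genes of a library.

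The members were moderately expressed, and most were highest at day 21. The level was at or above the floor at day 21 in 327 members, at day 30 in 230 and at day 45 in 233, and on all 3 days in 200. The highest day was day 21 in 279 members, day 30 in 26 and day 45 in 28. Median levels were 11, 7.11 and 7.17 TPM. Just inside the floor stood ZNF44, ZNF256 and ZNF761, at 5.0 to 5.01 TPM on their highest day, and just outside stood ZNF416, ZNF391 and ZNF571, at 4.998, 4.995 and 4.94 TPM. The summed CPM of the members was 6657 ± 183 (SD, n = 4) at day 21, 5968 ± 498 (SD, n = 5) at day 30 and 5814 ± 132 (SD, n = 5) at day 45. All these values follow from the levels that chose the members, and are a description. For tests, the members were narrowed to the 269 whose mean over all 14 libraries, whatever the day, also reached 5 TPM; the other 64 are described without a p-value.

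The most abundant members had no KRAB domain. ZNF207, a microtubule-binding protein of the spindle, had the highest mean over all libraries, with 134.8 ± 12.3 TPM (SD, n = 4) at day 21, 68.3 ± 12 (SD, n = 5) at day 30 and 85.3 ± 9.02 (SD, n = 5) at day 45. It was followed by ZNF385D, ZNF395, ZNF146, ZNF638, ZNF362, ZNF384, ZNF428, ZNF358 and ZNF521, with means of 43.3 to 89.95 TPM. Among members with KRAB, ZNF875 was highest at 31.8 TPM. ZNF207 was 0.29 lower (log2, SE 0.10) at day 45 than at day 21 with an edgeR adjusted p of 0.019, and the adjusted p was 0.484 with an offset for transcript length and GC content.

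From day 21 to day 45, ZNF385A, ZNF385C and ZNF385D rose, and ZNF385B was higher. ZNF385 proteins carry fingers in which more residues separate the histidines than in the classical C2H2 finger, and ZNF385A is known to bind RNA and p53. The coding sequences of 1 finger each of ZNF385A, ZNF385B and ZNF385D, and of 2 members with KRAB that fell, ZNF789 and ZNF419, show this spacing. They were cut from GENCODE 29 transcripts on GRCh38, and capitals mark the 4 codons of the cysteines and histidines.
ZNF385A: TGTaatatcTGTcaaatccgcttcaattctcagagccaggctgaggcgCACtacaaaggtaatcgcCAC
ZNF385B: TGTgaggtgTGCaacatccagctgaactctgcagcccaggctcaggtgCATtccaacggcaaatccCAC
ZNF385D: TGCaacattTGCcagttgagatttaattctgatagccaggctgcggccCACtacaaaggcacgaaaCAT
ZNF789: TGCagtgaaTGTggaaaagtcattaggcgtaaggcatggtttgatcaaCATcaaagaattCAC
ZNF419: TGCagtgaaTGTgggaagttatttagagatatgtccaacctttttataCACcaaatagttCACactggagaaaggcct
The ZNF385B finger lies in exon 3 on the minus strand, at chr2:179769582-179769650. Those of ZNF385A (chr12:54374100-54375876) and ZNF385D (chr3:21510988-21564606) are split over exons 3 and 4 on the minus strand, and the span includes the intron. The fingers of ZNF789 (chr7:99486817-99486879) and ZNF419 (chr19:57493254-57493331) lie in exon 5 on the plus strand. Between the 2 histidines lie 5 residues in all 3 ZNF385 fingers and 3 residues in ZNF789 and ZNF419. The ZNF419 line ends with the linker that joins it to the next finger. Over 69 aligned bases, ZNF385A and ZNF385D were 69.6% identical, ZNF385A and ZNF385B 62.3%, and ZNF385B and ZNF385D 53.6%.

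ZNF385B went from near absence to a high level between days 21 and 30. Its CPM was 0.889, 0.507, 0.336 and 0.227 at day 21, then 34.3, 45.2, 24.1, 33.1 and 21.1 at day 30, and 39.5, 35.7, 49.7, 45.3 and 38.6 at day 45. Every later library was far above all day 21 libraries, and days 30 and 45 overlapped. The fitted log2 fold change was 6.40 (SE 0.31) at day 45 against day 21, given without a test because the gene reached the floor only through the later days. The day 21 levels rest on 8 to 32 reads per library. The promoter of ZNF385B (RefSeq, GRCh38.p14, minus strand, chr2:179861563-179861862) is shown because this gene changed most. The gene has 13 transcripts, and whether transcription started at this promoter was not tested. Of the letters searched the promoter held only a GC box on the reverse strand, in capitals.
ZNF385B promoter: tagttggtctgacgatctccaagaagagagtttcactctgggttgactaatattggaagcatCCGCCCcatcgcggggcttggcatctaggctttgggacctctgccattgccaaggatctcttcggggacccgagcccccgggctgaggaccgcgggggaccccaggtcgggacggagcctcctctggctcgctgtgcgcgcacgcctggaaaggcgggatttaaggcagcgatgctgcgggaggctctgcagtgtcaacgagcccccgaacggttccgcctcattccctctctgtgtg
It held 22 CpG pairs, against a median of 23 over the 291 members with a RefSeq promoter.

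ZNF385A rose from day 21 to day 30 and from day 30 to day 45, though on log2(TPM + 1) the first step was 0.22, with a limma adjusted p of 0.155. Its CPM was 15.0, 11.3, 11.6 and 11.8 at day 21, then 22.3, 17.9, 25.8, 23.2 and 17 at day 30, and 38.9, 43.9, 38, 38.3 and 41.8 at day 45. The 3 days did not overlap, and the log2 fold change was 1.69 (SE 0.13, edgeR adjusted p 5.85e-09) from day 21 to day 45.
ZNF385D was the most abundant of the family. Its CPM was 62.3, 63.8, 76.5 and 80.9 at day 21, then 143, 134, 106, 98.9 and 100 at day 30, and 168, 153, 168, 183 and 165 at day 45. The days did not overlap here either, and the gene rose by 1.24 (log2, SE 0.12, edgeR adjusted p 1.85e-07) from day 21 to day 45. The step from day 30 to day 45 was 0.53 with all libraries and 0.26 without day 30 replicates 3 to 5, with an edgeR adjusted p of 0.0648.
The mean of ZNF385C was highest at day 30, at 13.3 ± 2.95 CPM (SD, n = 5). It was 7.15 ± 0.645 (SD, n = 4) at day 21 and 10.4 ± 1.28 (SD, n = 5) at day 45. Days 30 and 45 overlapped. Without day 30 replicates 3 to 5, the step from day 30 to day 45 was -0.167 (edgeR adjusted p 0.407). On log2(TPM + 1) that step was -0.238, with a limma adjusted p of 0.131. ZNF385C rose by 0.89 (log2, SE 0.15, edgeR adjusted p 9.99e-05) from day 21 to day 30. Its rise from day 21 to day 45 (0.54, edgeR adjusted p 0.0055) was 0.09 on the TPM scale, with a limma adjusted p of 0.588.

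**Figure D1:**
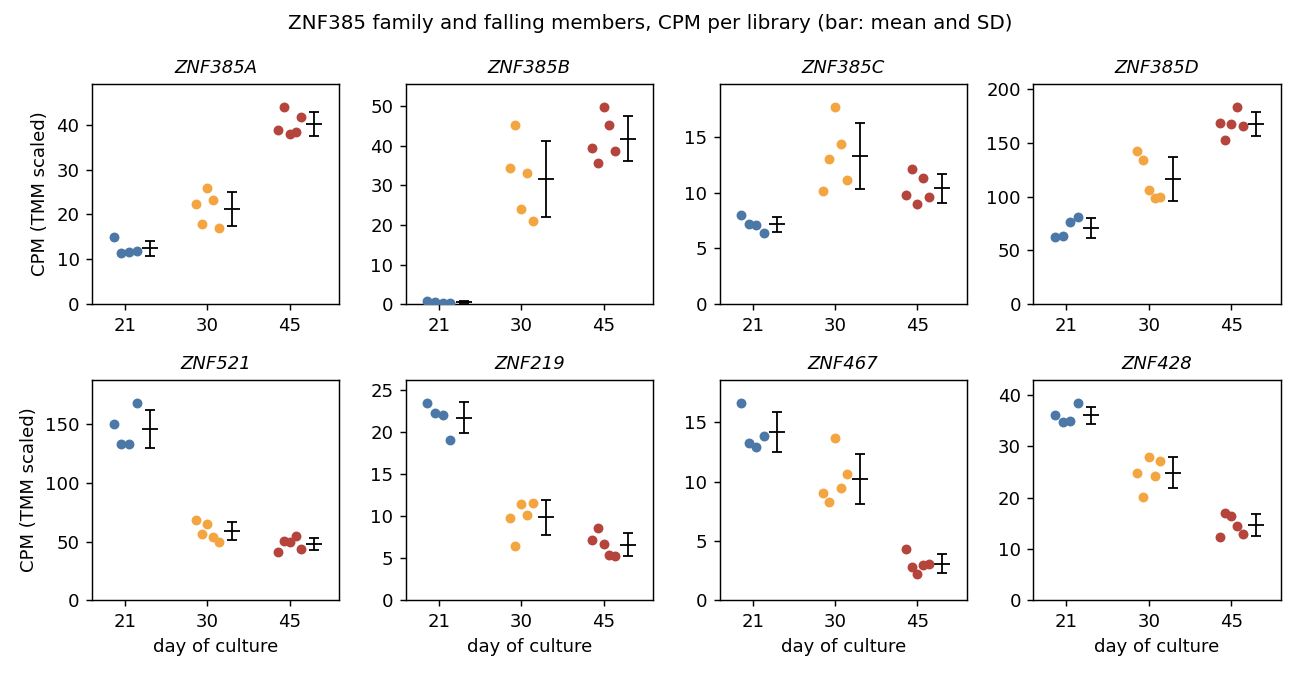
CPM (TMM scaled) of 8 members in each library by day of culture, with the mean and SD of the day as a bar. In the upper row ZNF385A, ZNF385B and ZNF385D are highest at day 45; in the lower row ZNF521, ZNF219, ZNF467 and ZNF428 are highest at day 21, and no day 45 library reaches the day 21 range.

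Of 5 members tied to mesenchyme and cartilage regulators, 3 fell, 1 rose and 1 did not pass the test from day 21 to day 45. Over all genes tested, 30.5% fell and 27.1% rose. ZNF521, a partner and antagonist of EBF factors in mesenchymal cells, had 150, 134, 133 and 168 CPM at day 21, then 68.5, 56.6, 64.6, 53.9 and 49.9 at day 30, and 41.1, 50.3, 49.6, 54.8 and 44 at day 45. All later libraries lay below all day 21 libraries, and the fall was 1.61 (log2, SE 0.11, edgeR adjusted p 2.32e-09) by day 45. ZNF423, its closest relative, fell by 0.88 (SE 0.13, adjusted p 1.25e-05), from 37.8 ± 3.04 CPM (SD, n = 4) to 20.5 ± 2.34 (SD, n = 5).
ZNF219, a protein that binds SOX9 and raises its activity on cartilage genes, had 23.4, 22.3, 22.1 and 19 CPM at day 21, then 9.72, 6.46, 11.4, 10.2 and 11.6 at day 30, and 7.10, 8.63, 6.68, 5.35 and 5.23 at day 45. It fell by 1.71 (log2, SE 0.16, edgeR adjusted p 1.01e-07) from day 21 to day 45, with no overlap, and the step from day 30 to day 45 had an edgeR adjusted p of 0.212 without day 30 replicates 3 to 5. Of the 50-base stretches of ZNF219 transcripts, 16.5% are also found in other genes, so some of its reads could be shared.
ZNF469, linked to collagen fibrils of the cornea, went the other way, with 103 ± 13.8 CPM (SD, n = 4) at day 21, 109 ± 30.4 (SD, n = 5) at day 30 and 163 ± 20.1 (SD, n = 5) at day 45. It rose by 0.66 (SE 0.17, edgeR adjusted p 0.00277), and the limma adjusted p on log2(TPM + 1) was 0.373. ZNF703 passed in no comparison of days on the TMM scale, with edgeR adjusted p-values of 0.528 to 0.758. On log2(TPM + 1) its limma adjusted p was 0.014 at day 45 against day 21, with means of 14.55 and 20.7 TPM. ZNF503 was below the floor at 3.62 TPM.

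The largest fall among the 269 was that of ZNF467, a regulator of fat and bone cell fate. Its CPM was 16.6, 13.2, 12.9 and 13.8 at day 21, then 8.99, 8.26, 13.7, 9.42 and 10.6 at day 30, and 4.36, 2.78, 2.24, 3 and 3.05 at day 45. Days 21 and 30 overlapped and day 45 stood below both, with a fall of 2.20 (log2, SE 0.18, edgeR adjusted p 1.22e-08) from day 21. ZNF428, from 36.0 ± 1.65 CPM (SD, n = 4) over 24.8 ± 3.03 (SD, n = 5) to 14.7 ± 2.06 (SD, n = 5), fell at both steps, by 1.30 (SE 0.11) in all. ZNF362 fell by 1.04 (SE 0.09, edgeR adjusted p 1.57e-08).

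Of the 5 RNA-binding members listed, ZNF385A rose and the other 4 fell from day 21 to day 45, where 27.1% of all genes tested rose and 30.5% fell. ZNF106, ZNF638, ZNF326 and ZNF346, the last a binder of double-stranded RNA, fell by 0.36, 0.39, 0.51 and 0.29 (log2) against day 21, with edgeR adjusted p of 0.0117, 0.00762, 0.000908 and 0.0364. With day 45 replicate 1 placed at day 30, as its treatment label has it, edgeR adjusted p-values were 0.1 for ZNF106, 0.0502 for ZNF638 and 0.103 for ZNF346. ZNF346 also missed the threshold without day 21 replicate 1 or 2, or day 45 replicate 1, 3, 4 or 5, with edgeR adjusted p-values of 0.0591 to 0.112. ZNF106 dipped at day 30: its CPM was 87.1, 85.2, 101 and 92.3 at day 21, then 54.8, 50.1, 37.3, 37.5 and 39.1 at day 30, and 66.6, 68.5, 71.1, 73.1 and 77.2 at day 45. No 2 days overlapped.
Of 5 members of the spindle, ribosome and nucleolus, 3 rose, 1 (ZNF207) fell and 1 (ZNF593) did not pass the test from day 21 to day 45. The shares over all genes tested were 27.1% rising and 30.5% falling. ZNF330, a nucleolar protein, ZNF622, a factor of late ribosome maturation, and ZNF598, a ubiquitin ligase that senses collided ribosomes, rose by 0.79, 0.61 and 0.47 (log2) from day 21 to day 45, with edgeR adjusted p of 4.77e-07, 3.26e-05 and 0.00132. On the TPM scale the adjusted p of limma was 0.0764 for ZNF622 and 0.67 for ZNF598. ZNF593, another ribosome assembly factor, was 0.24 higher at day 45 than at day 21 (edgeR adjusted p 0.178). It rose by 0.68 to day 30 and fell by 0.44 after it. Without day 30 replicates 3 to 5 these steps were 0.405 and -0.187, with edgeR adjusted p-values of 0.0642 and 0.385. Of its 50-base stretches, 87.7% occur in other genes. ZNF330 had 15.1, 15.0, 14.6 and 15.3 CPM at day 21. Its day 30 libraries ranged from 20.7 to 25.6 CPM, and those of day 45 from 24.7 to 27.0, with every later library above day 21. ZNF395, a factor induced in low oxygen, also rose, from 106 ± 17.9 CPM (SD, n = 4) to 194 ± 20.1 (SD, n = 5), by 0.88 (SE 0.13, edgeR adjusted p 1.52e-05); 32.9% of its 50-base stretches occur in other genes.

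Of the 6 promoter factors, 3 fell from day 21 to day 30 and 4 rose after it, against 27.1% and 27.6% of all genes tested. ZNF281, ZNF148 and ZNF217 fell by 0.96, 0.52 and 0.55 (log2) from day 21 to day 30 and rose by 1.02, 0.73 and 0.64 from day 30 to day 45, each with an edgeR adjusted p below the threshold of 0.05. Without day 30 replicates 3 to 5 the first step was -0.54, -0.09 and -0.27, and it passed for ZNF281 alone (edgeR adjusted p 0.00646, 0.538 and 0.0922). ZNF281 had 18.3, 17.9, 23.1 and 22.7 CPM at day 21, then 16.3, 12, 8.75, 6.79 and 8.88 at day 30, and 21, 20.3, 23.1, 22.5 and 20.4 at day 45. The 3 lowest of these libraries are day 30 replicates 3 to 5, and replicates 1 and 2 also lay below every other library. ZNF76, a relative of ZNF143, fell late, from 28.1 ± 3.28 CPM (SD, n = 5) at day 30 to 16.5 ± 1.38 (SD, n = 5) at day 45, by 0.77 (SE 0.10, edgeR adjusted p 6.01e-06). ZNF143 and ZNF410 were 0.26 and 0.25 higher (log2) at day 45 than at day 21 on the TMM scale and lower on the TPM scale.
Of 6 listed partners of ZMYND8 or of histone methylation, 0 rose and 2 fell from day 21 to day 45. Among all genes tested 27.1% rose and 30.5% fell. ZNF592 and ZNF532, which bind ZMYND8, fell by 0.52 and 0.78 by day 30 and rose by 0.48 and 0.63 after it. Under the offset for length and GC content, the fall of ZNF592 had an edgeR adjusted p of 0.0752. ZNF687, the last of that trio, passed in no comparison, with edgeR adjusted p-values of 0.122 to 0.731. Under that offset its edgeR adjusted p was 0.00787 at day 45 against day 21. ZNF644 fell by 1.085 (log2) by day 30 and rose by 0.56 after it. That rise was 0.02 without day 30 replicates 3 to 5 (edgeR adjusted p 0.951). The 2 that fell from day 21 to day 45 were ZNF462 and ZNF518A, by 0.69 and 0.76 without those replicates. In that fit ZNF532 and ZNF644 also fell, with edgeR adjusted p-values of 0.0314 and 0.00336. The call of ZNF518A was lost without day 21 replicate 3, without a low-count filter, and with day 45 replicate 1 placed at day 30. ZNF618, a partner of UHRF2, had 61.6, 71.2, 76.6 and 75.7 CPM at day 21, then 22.6, 19, 23.9, 17 and 24.9 at day 30, and 26.6, 30.5, 23.3, 30.9 and 29.5 at day 45. It fell by 1.73 (log2, SE 0.12, edgeR adjusted p 6.45e-09) by day 30 and stayed below day 21 in every library.

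**Figure D2:**
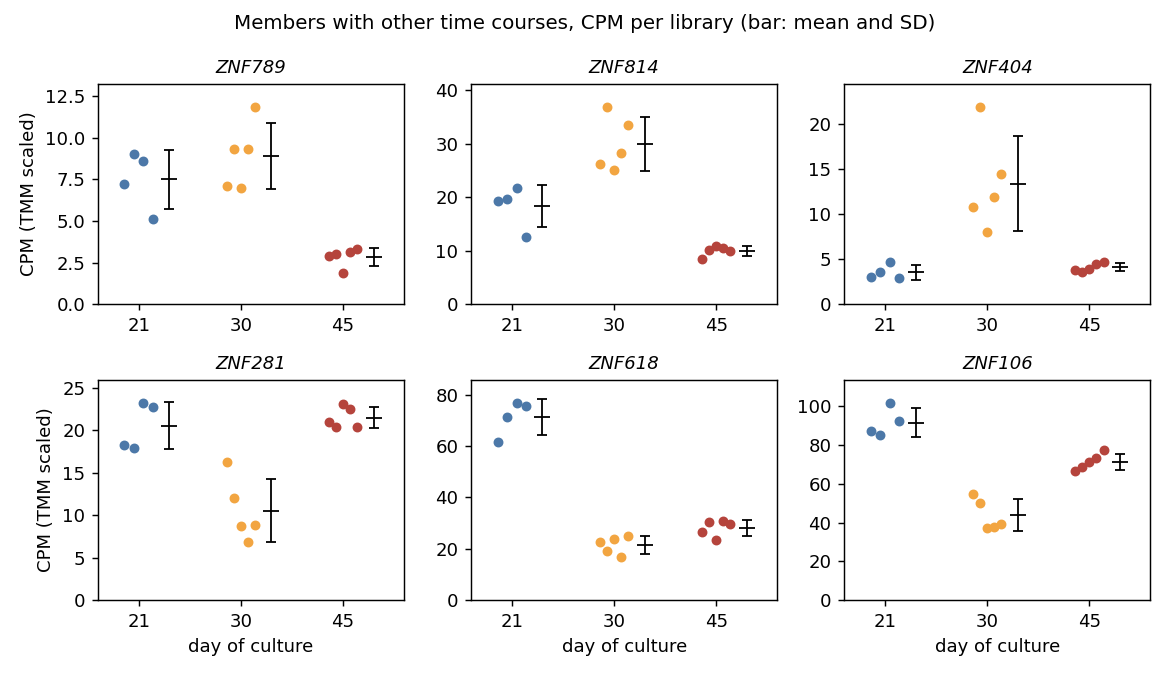
CPM (TMM scaled) of 6 further members in each library by day of culture, with the mean and SD of the day as a bar. ZNF789 and ZNF814 are lowest at day 45, ZNF404 is highest at day 30, and the means of ZNF281, ZNF618 and ZNF106 are lowest at day 30.

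A KRAB domain was found with a sequence profile in 205 of the 333 members, and in 152 of the 269 tested members. A profile can miss a diverged domain, or one that the coding transcript used here lacks. From day 21 to day 45, 9 of the 152 members with KRAB rose and 75 fell, with a median of -0.34 (log2). Of the 117 without KRAB, 22 rose and 47 fell, with a median of -0.20. Over all genes tested 27.1% rose and 30.5% fell, with a median of -0.05, and of the 10048 protein-coding genes at a mean of 5 TPM or more 34.6% rose and 26.8% fell. The share of members with KRAB that rose was 5.92%, and the share that fell was 49.3%. Of all 333 members, 32 rose and 156 fell, which is a description.
The falls were spread over 94 members with KRAB on chromosome 19 (5 rose, 44 fell) and 58 on other chromosomes (4 rose, 31 fell). Of the 83 members with KRAB that share less than 5% of their 50-base stretches with other genes, 7 rose and 37 fell. ZNF195, ZNF772, ZNF154, ZNF519, ZNF738 and ZNF43 each fell by 1.07 to 1.22 (log2). The rising ones were ZNF25, ZNF766, ZNF430, ZNF274, ZNF337, ZNF18, ZNF331, ZNF791 and ZNF23, by 0.40 to 0.98, and ZNF766 had a limma adjusted p of 0.0667 on log2(TPM + 1). Both sets were named after their values were seen, and 72.7% of the 50-base stretches of ZNF337 are shared with other genes. ZNF25 had 12.4, 12.5, 12.9 and 10.5 CPM at day 21 and 21.6 to 26.5 at day 45. ZNF274, which brings SETDB1 to the 3-prime ends of other zinc finger genes, rose by 0.57 on the TMM scale, and its limma adjusted p on log2(TPM + 1) was 0.845. ZNF91, which represses SVA retrotransposons, passed in no comparison of days, with edgeR adjusted p-values of 0.189 to 0.735. With the offset for length and GC content, its edgeR adjusted p was 0.00386 at day 45 against day 21. Without day 30 replicates 3 to 5, ZNF91 was 0.47 higher at day 30 (edgeR adjusted p 0.00942) and 0.25 higher at day 45 (0.0477) than at day 21. ZNF93, which represses L1 elements, went from 5.82 to 2.24 and 2.02 TPM and is described only, since it was at the floor at day 21 alone. ZNF10, ZNF268 and ZNF445, the last a factor of imprinting control, fell by 0.52, 0.52 and 0.39. The edgeR adjusted p of ZNF10 was 0.118 with day 45 replicate 1 at day 30, and that of ZNF445 was 0.0707 with the offset for length and GC content.

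The steps before and after day 30 are given for both classes, whose difference was not tested. From day 21 to day 30, 30 of the 152 members with KRAB rose and 39 fell (median -0.05), against 27.2% and 27.1% of all genes tested. Without day 30 replicates 3 to 5, 34 rose and 22 fell (median 0.04), against 3607 and 3945 of 17784 genes tested. With the offset for length and GC content 56 rose and 30 fell (median 0.09), and with day 45 replicate 1 placed at day 30, 17 rose and 40 fell, so the direction of this step depends on these choices. Under that offset 5127 of all 17838 genes tested rose and 4799 fell. Of the 117 members without KRAB, 26 rose and 44 fell (median -0.17); without those replicates, 14 rose and 35 fell. From day 30 to day 45, 13 members with KRAB rose and 70 fell (median -0.26), against 27.6% and 28.7% of all genes tested. Without those replicates, 1 rose and 70 fell, against 3598 and 3515 of 17784 genes tested. Of the members without KRAB, 27 rose and 35 fell (median -0.01); without those replicates, 18 rose and 31 fell.
The scale bears on this. On log2(TPM + 1), 19 members with KRAB rose and 33 fell from day 30 to day 45, with a median of -0.00, and 36 members without KRAB rose and 24 fell, with a median of 0.07. Of all 17838 genes tested, 4841 rose and 4163 fell over this step on that scale. TPM divides by effective length, and the median effective length of members with KRAB moved by -0.12 (log2, centred on all genes tested) from day 30 to day 45, against 0.01 in those without KRAB. The counts of the other day comparisons were also shifted on that scale: 1 member with KRAB rose and 104 fell from day 21 to day 45, and 4 rose and 102 fell from day 21 to day 30. Without KRAB these counts were 5 and 79 in both comparisons. Most calls over all 17838 genes tested were also falls on that scale. Rises and falls numbered 2147 and 8722 from day 21 to day 45, and 1788 and 9019 from day 21 to day 30.

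**Figure D3:**
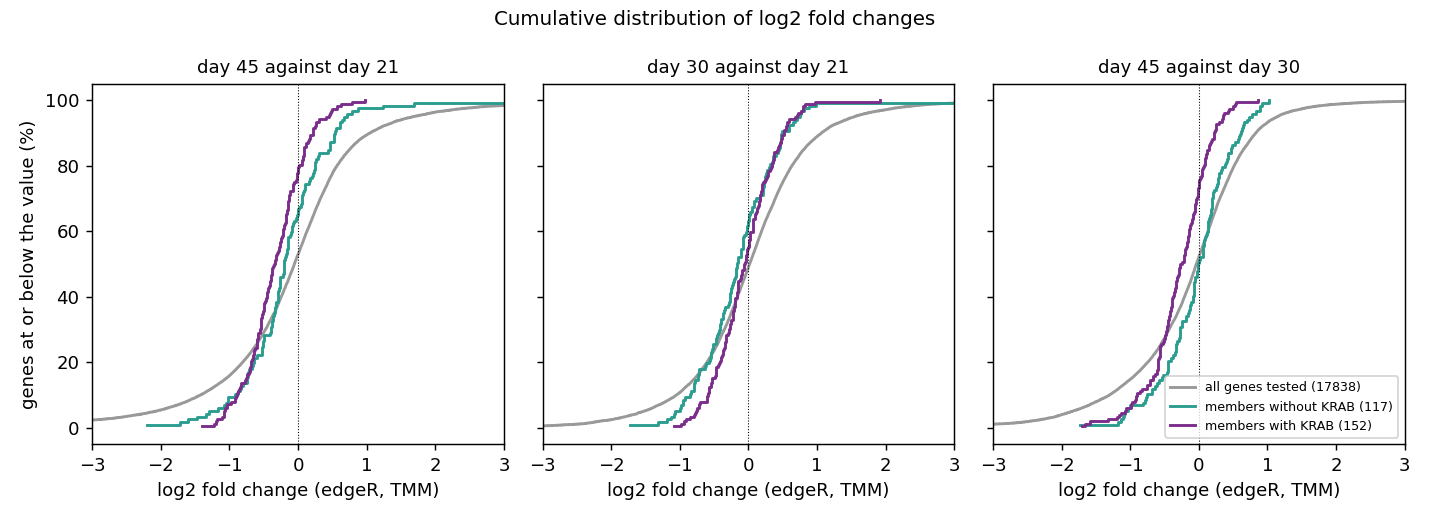
Cumulative share of genes by log2 fold change in the 3 comparisons of days, for all 17838 genes tested (grey), the 117 members without KRAB (green) and the 152 with KRAB (purple). The purple curve lies left of the grey one around 0 in the comparisons with day 45, with medians of -0.34 against -0.05 and -0.26 against -0.04.

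By library, the members with KRAB made up 38.9% to 41.7% of the members' CPM at day 21. The share was 42.0% to 45.9% at day 30, and in the day 45 libraries it was 37.3% to 38.7%. The 3 days did not overlap in this share. It covers all 333 members, 205 of them with KRAB, and follows from the levels that chose them, so it is a description. Among the 152 tested members with KRAB, the median deviation from the day 21 mean was -0.39 to -0.25 (log2) in day 45 libraries. At day 30 it was 0.00 and 0.07 in replicates 1 and 2 and -0.20, -0.20 and -0.04 in replicates 3 to 5.

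**Figure D4:**
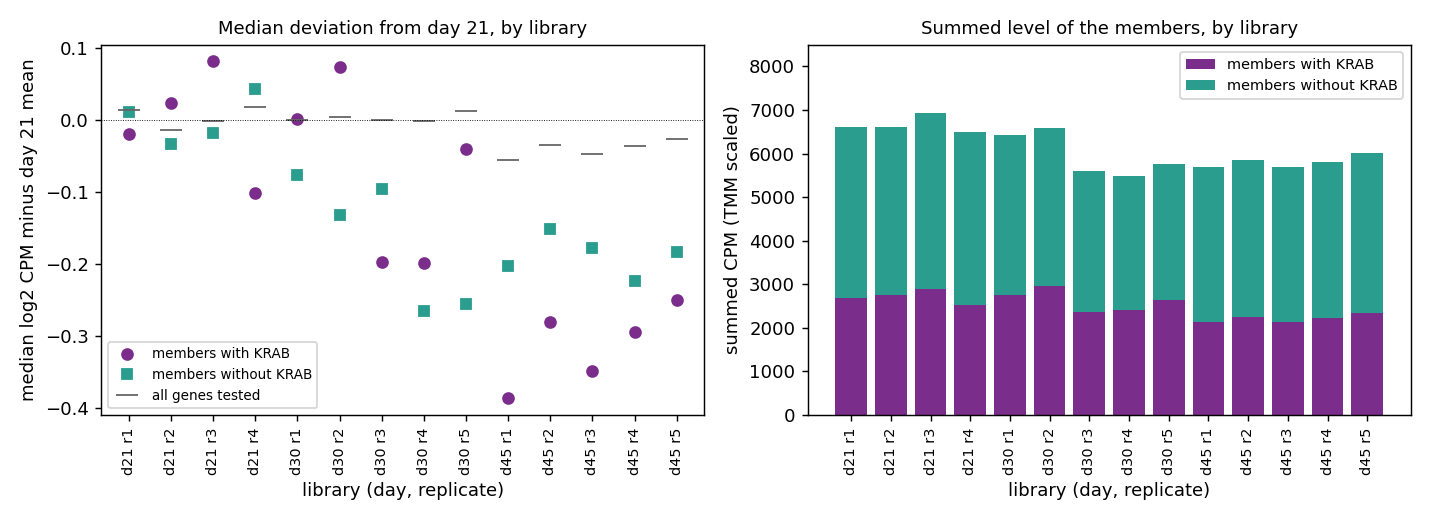
Left, the median log2 CPM of the 152 tested members with KRAB (circles), the 117 without KRAB (squares) and all genes tested (dashes) in each library, relative to the day 21 mean. Right, the summed CPM of all 333 members, split by KRAB. All day 45 circles lie at -0.25 or below, and the summed CPM is 5699 to 6019 at day 45 against 6506 to 6923 at day 21.

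Some members with KRAB peaked at day 30 and fell after it. ZNF404 had 3, 3.57, 4.66 and 2.86 CPM at day 21, then 10.8, 21.9, 7.96, 11.9 and 14.5 at day 30, and 3.85, 3.60, 3.93, 4.48 and 4.74 at day 45. Day 30 stood above both other days, and the later change minus the earlier was -3.62 (log2, edgeR adjusted p 1.32e-06). ZNF814 had 19.3, 19.8, 21.8 and 12.6 CPM at day 21, then 26.1, 36.8, 25, 28.3 and 33.5 at day 30, and 8.40, 10.2, 10.9, 10.4 and 10 at day 45. It rose by 0.70 (SE 0.15), with an edgeR adjusted p of 0.144 when day 45 replicate 1 is placed at day 30, and then fell by 1.58 (SE 0.15, edgeR adjusted p 2.3e-07); on the TPM scale the first step was -0.00. In ZNF814, 26.9% of the 50-base stretches are shared with other genes.
ZNF789 fell late: its CPM was 7.23, 9.04, 8.61 and 5.13 at day 21, then 7.12, 9.33, 6.99, 9.32 and 11.8 at day 30, and 2.90, 3, 1.87, 3.13 and 3.30 at day 45. It fell by 1.65 (log2, SE 0.20, edgeR adjusted p 3.43e-06) from day 30 to day 45. ZNF688, ZNF700, ZNF226 and ZNF419 fell by 1.32, 1.19, 1.13 and 1.16 over the same step. ZNF177 went from 4.09 ± 0.958 CPM (SD, n = 4) to 7.78 ± 1.91 (SD, n = 5) and 2.08 ± 0.465 (SD, n = 5), and 86.8% of its 50-base stretches are shared, so its reads are uncertain.
Of the 269 tested members, the later minus the earlier change was positive in 57 and negative in 74, which are 21.2% and 27.5%, against 25.3% and 27.5% of all genes tested. Without day 30 replicates 3 to 5 it was positive in 21 and negative in 67, against 2836 and 2793 of 17784 genes tested.

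Promoters of members held a median of 23 CpG pairs, against 26 for protein-coding genes tested and 14 for all promoters. The letters CCGGAAG, the core that ETS factors read, were searched on both strands and found in 47.3% of 182 members with KRAB and 33.0% of 109 without, against 18% of 11479 promoters of protein-coding genes tested and 10.7% of all 27305. TATAAA was found in 3.09% of the members' promoters, 5.77% of those of protein-coding genes tested and 12% of all. In the same order, the shares were 6.19%, 3.68% and 2.95% for ACTACAA, 2.75%, 4.99% and 3.18% for GGCGGGAA, and 64.6%, 69.1% and 44.6% for GGGCGG. They were 4.47%, 3.09% and 1.98% for TGACGTCA, 19.2%, 10.8% and 16% for ACAAAG, and 7.56%, 6.12% and 11% for ACAATG; GGCGGGAA and GGGCGG can overlap. Members with KRAB that hold CCGGAAG numbered 66 among those tested, of which 5 rose and 27 fell by day 45, and of the 67 without it 4 rose and 37 fell. Among tested members without KRAB, 7 of 32 with these letters rose and 13 fell, and of the 68 lacking them 11 rose and 28 fell. Over all genes tested, 27.1% rose and 30.5% fell. The promoter of ZNF814 (chr19:57888988-57889287, minus strand) shows both the ETS letters, read on the reverse strand, and ACAATG in capitals.
ZNF814 promoter: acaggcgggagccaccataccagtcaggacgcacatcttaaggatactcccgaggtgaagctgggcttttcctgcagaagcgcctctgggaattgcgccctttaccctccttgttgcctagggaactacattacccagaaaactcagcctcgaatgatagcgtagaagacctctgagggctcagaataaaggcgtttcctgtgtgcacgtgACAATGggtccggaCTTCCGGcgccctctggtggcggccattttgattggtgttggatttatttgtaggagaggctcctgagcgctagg

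On chromosome 19, which holds 155 of the members, ZNF genes lie in clusters. With a gap of at least 1 Mb between clusters, those holding most members ran from ZNF628 to ZNF446 (45 of 59 ZNF genes were members), from ZNF175 to ZNF331 (26 of 39) and from ZNF101 to ZNF254 (19 of 37). Their tested members had medians of -0.38, -0.30 and -0.40 (log2) at day 45 against day 21, with 4 rising and 19 falling, 2 and 10, and 1 and 4, of 35, 22 and 10 tested, against 27.1% rising and 30.5% falling over all genes tested. In the cluster from ZNF565 to ZNF573, no tested member rose, 3 of 12 fell, a share below that of all genes tested, and the median was -0.15.

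**Figure D5:**
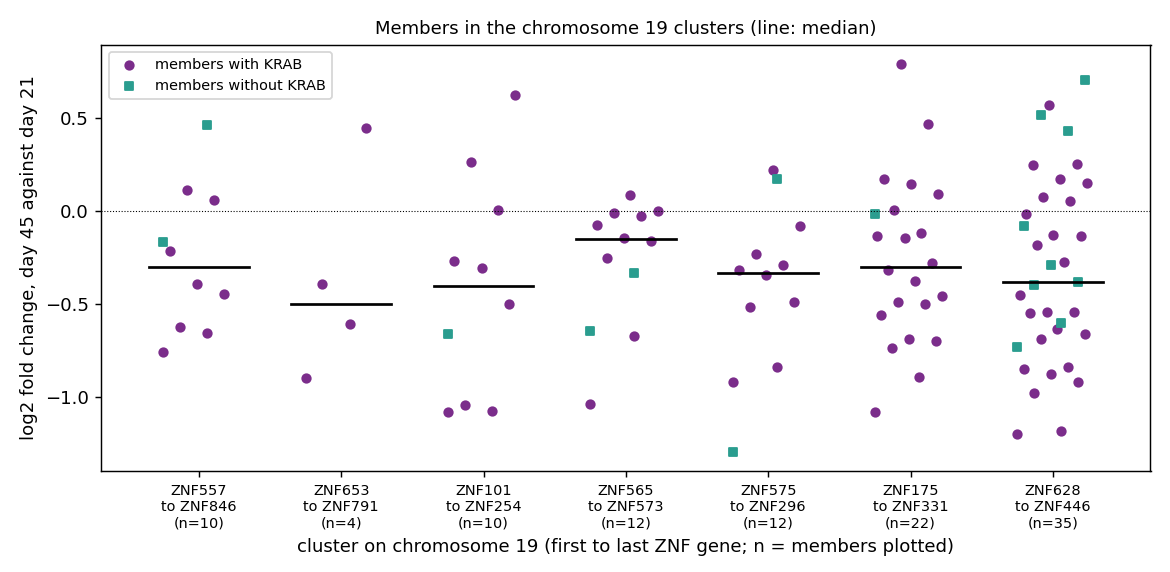
Log2 fold change at day 45 against day 21 of the tested members in the chromosome 19 clusters with at least 4 of them (circles with KRAB, squares without; line, median). Medians run from -0.50 in the cluster of ZNF653 to ZNF791 to -0.15 in that of ZNF565 to ZNF573.

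Of 36 genes of the KRAB corepressor and heterochromatin list, 2 rose and 22 fell from day 21 to day 45, with a median of -0.41. These are 5.56% and 61.1%, against 27.1% and 30.5% of all genes tested. TRIM28 had 425.7 ± 14.8 TPM (SD, n = 4) at day 21, 234.9 ± 26.4 (SD, n = 5) at day 30 and 245.5 ± 16.4 (SD, n = 5) at day 45, and fell by 0.29 (log2, SE 0.11, edgeR adjusted p 0.0237). SETDB1 fell by 0.57 (SE 0.08, adjusted p 1.19e-05). The falls with the smallest adjusted p were those of the remodeller CHD3 (-1.74), the DNA methyltransferase DNMT3A (-1.10) and UHRF1 (-1.42), which guides maintenance methylation. MPHOSPH8, a subunit of the HUSH silencing complex, rose by 0.52 (log2, SE 0.09, edgeR adjusted p 8.86e-05), and on log2(TPM + 1) its change was -0.01, with a limma adjusted p of 0.932. A set drawn by ZBTB, ZSCAN, ZKSCAN, ZFP and ZIK symbols, mostly of C2H2 genes, held 56 genes at the same floor. Of these, 11 (19.6%) rose and 20 (35.7%) fell. The shares of all genes tested were 27.1% and 30.5%. ZFP36, among those that rose (by 2.21, log2), entered by its symbol and is not a C2H2 gene. These 56 were chosen on the level of their highest day and not narrowed by their mean over all libraries, so their counts are a description.

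The mix of transcripts, read from the effective length that RSEM estimated, changed in few members. By day 45, 4 of the 269 tested members passed the test, each shorter than at day 21 (limma adjusted p below 0.05), which is 1.49%; of all genes tested 0.673% were longer and 0.897% shorter. Over all 333 members 1 was longer and 7 were shorter, which is a description. ZNF544, with KRAB, went from 1314 ± 140 bases (SD, n = 4) to 773 ± 120 (SD, n = 5), with an adjusted p of 0.00698. ZNF577 and ZNF528 went from 1654 to 962 bases and from 1850 to 1259 bases. ZNF385B went from 2313 to 966 bases, and its day 21 value rests on the few reads given above.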

How the data were processed

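The 14 RNA libraries were prepared with TruSeq RNA Library Prep Kit v2, per the labels' protocols. This kit does not mark strand, so overlapping antisense genes cannot be told apart. Reads were processed with STAR 2.4.2a and RSEM 1.2.25 on GRCh38, per the submitters' processing notes; no release of the gene annotation is named in the sources used here. Per the file headers, the deposited values are expected counts, TPM, lengths and effective lengths, as RSEM estimates them.

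Members and lists were chosen with earlier results of these data known. Expected counts were rounded to whole numbers. Genes were kept by filterByExpr, scaled by TMM and tested by quasi-likelihood in edgeR 4.0.16 (R 4.3.3, robust), 1 mean per day over all libraries, with Benjamini-Hochberg adjustment over 17838 genes and a threshold of 0.05. The SE is the log2 fold change divided by the square root of F. Effective lengths (log2, centred) were tested with limma 3.58.1. The scripts were tested on simulated data. Symbols were found for 60563 genes, and coordinates from GENCODE 29 for 58400. KRAB domains were found with pyhmmer 0.12.3 profiles (E-value 0.0001) in translated GENCODE transcripts. Promoters are from RefSeq, with 291 of 333 members matched.

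Named genes are the 10 most abundant members, the 8 largest changes of each sign per comparison with adjusted p below 0.05 and no overlap between days, 4 per sign for the difference between both steps, genes next to the floor, and chosen genes of known role; not all are described. Alternatives were DESeq2 1.42.0 and its size factors, limma on log2(TPM + 1) and log2(TPM + 0.1), other filters and floors, non-robust fits, only the days compared, a replicate block, leaving out libraries, the day 45 label conflict, and an offset for length and GC content. The KRAB counts under these alternatives, and the transcript length column, were added after seeing the data. Same-numbered libraries of different days correlated at -0.251 to 0.116 in their deviations, so numbers were not used to pair samples.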

Additional observations from a re-analysis of the deposited data

Results flagged for a closer look

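In 2 of 75 groups of 4 or 5 library values, 1 library lay far from the rest of its day by Dixon's test at the 95% level, which chance alone gives in about 1 of 20 groups. ZNF385A was 15.007 CPM in day 21 replicate 1, against 11.347 to 11.787 in the other day 21 libraries, and this value is still below every day 30 and day 45 library. ZNF789 was 1.873 CPM in day 45 replicate 3, against 2.905 to 3.297 in the other day 45 libraries.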

How the results depend on the processing

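Outside single-library omissions, 61 recomputed counts moved by over 1.5 times and 267 did not. Of 2462 recomputed values of named genes, 2338 kept their call, 70 lost it, 50 gained one and 4 reversed: at day 45 against day 21, ZNF143 was -0.11 on log2(TPM + 0.1) and -0.10 on log2(TPM + 1), and ZNF410 was -0.27 on both. Causes were not tested.

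On log2(TPM + 0.1) and log2(TPM + 1), which do not centre most genes, higher members numbered 6 and 6 (day 45 against 21; with KRAB 1 and 1, without 5 and 5) and 10 and 10 (day 30 against 21; 4 and 4, 5 and 5). Lower members without KRAB numbered 78 and 79 at day 45 against 21. At day 30 against 21, 231 and 231 members were lower (102 and 102 with KRAB, 79 and 79 without), and at day 45 against 30, 66 and 64 (34 and 33 with KRAB). The later minus the earlier change was positive in 165 and 164 and negative in 28 and 28. Corepressors that rose numbered 0 and 0, and genes of the ZBTB, ZSCAN, ZKSCAN, ZFP and ZIK set 4 and 4 higher, 31 and 33 lower. Of all 17838 genes tested, 2147 were higher and 8722 lower on log2(TPM + 1) at day 45 against 21. These counts were 1788 and 9019 at day 30 against 21, and 4841 and 4163 at day 45 against 30. With the length and GC offset, 51 (19 with KRAB) were higher at day 45 against 21, 93 (56 with KRAB) at day 30 against 21, and 8 with KRAB at day 45 against 30. In the ZBTB, ZSCAN, ZKSCAN, ZFP and ZIK set, 17 were higher at day 45 against 21 with this offset. With day 45 replicate 1 at day 30, 17 with KRAB were higher at day 30 against 21; at day 45 against 30, 24 members (5 with KRAB, 17 without) were higher and 74 (45 and 20) lower. Without day 30 replicates 3 to 5, 14 without KRAB were higher and 72 members (22 with KRAB) lower at day 30 against 21, 20 members (1 with KRAB) were higher at day 45 against 30, and 25 had a positive later minus earlier change. With only the days compared, 8 with KRAB were higher at day 45 against 30. With a floor of 10 TPM the number of ZNF members was 198, with 90, 69 and 77 lower in the 3 comparisons, 48 with a positive later minus earlier change and 4 changed in effective length.

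Leaving out 1 library gave 28 to 33 members higher and 144 to 164 lower at day 45 against 21, 51 to 61 and 98 to 125 at day 30 against 21, and 37 to 54 and 105 to 119 at day 45 against 30. With KRAB, 8 to 16 were higher at day 45 against 30, with 8 without day 45 replicate 5. Effective length changed in 3 to 8, with 3 without day 21 replicate 2, 4 without day 21 replicate 3 or day 45 replicate 5, and 5 without day 21 replicate 1 or 4 or day 45 replicate 2 or 3. With the replicate number as a block, 27 members were higher and 146 lower at day 45 against 21, 49 and 107 at day 30 against 21, and 39 and 109 at day 45 against 30, and 2 changed in effective length; the numbers do not pair the samples.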
